A study of Mus musculus with 26 samples.

Results

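The genes described here are 39 genes of glucose uptake, glycolysis, lactate and pyruvate handling and glycogen metabolism, taken by symbol from the 40413 genes of a count table of mouse left ventricle. All 39 were among the 15543 genes that passed the filter on low counts. The ventricles came from adult mice of BPN/3J, an inbred strain with normal blood pressure, and BPH/2J, an inbred strain with high blood pressure. Mice received vehicle or Cmpd17b, a small-molecule agonist of formyl peptide receptors, once daily for 28 days, and the drug was given intraperitoneally at 50 mg/kg/day. Polyadenylated RNA was sequenced from 7 BPN/3J mice on vehicle, 5 BPN/3J mice on Cmpd17b, 7 BPH/2J mice on vehicle and 6 BPH/2J mice on Cmpd17b, with 1 further library left out as described below. The strains are whole inbred backgrounds, so no single allele separates them, and no source used here gives the age in weeks, the sex or the makeup of the vehicle.

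Glycolysis splits glucose into pyruvate in the cytosol. Glucose enters the cell through transporters, is trapped by hexokinase, is committed by phosphofructokinase and is then carried through aldolase, glyceraldehyde-phosphate dehydrogenase, phosphoglycerate mutase, enolase and pyruvate kinase. Many of these steps have a muscle isoform and a more widely expressed isoform, encoded by separate genes. Pyruvate is turned into lactate or enters mitochondria, where pyruvate dehydrogenase feeds the citric acid cycle and pyruvate dehydrogenase kinases hold it back. Glycogen is the store of glucose inside the fibre, broken down by phosphorylase, which phosphorylase kinase switches on. The adult heart draws most of its energy from fatty acids and uses glucose, lactate and glycogen beside them.

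Total counts ran from 25476100 to 48648200 per library. Expression is given as CPM, the count scaled to the library's TMM-normalised size, and a gene was called where its adjusted p in edgeR's quasi-likelihood test, adjusted over all genes tested, was under 0.05. In bulk ventricle, fewer cells of a type and less RNA per cell cannot be told apart. The library labelled BPH_Cmpd17b replicate 7 stood apart and was left out. As CPM of the total count, without the TMM factor, Myh6, a cardiac myosin, was at 16.3 there against 13568 to 22901 elsewhere, and Kap, a kidney gene, at 24939. The summed level of 10 cardiomyocyte markers lay between 48745 and 72327 CPM in the other 25 libraries, with no marker at 0. In BPN_vehicle replicate 7, 7 endothelial markers summed to 1354 CPM, against 515 to 639.6 CPM in the other BPN_vehicle libraries, and 7 fibroblast markers to 1070 CPM, against 679 to 825 CPM. It was the lowest of its group for 26 of the 39 genes and the highest for 3. BPH_Cmpd17b replicate 6 had the lowest cardiomyocyte sum and a fibroblast sum of 2014 CPM, against 738 to 867 CPM in the rest of its group, and it was the lowest of its group for 30 of the 39 genes. Samples carry a batch label. Batch 2 holds 2 libraries of each vehicle group and 1 of BPH_Cmpd17b, and none of BPN_Cmpd17b, so the batch effect in that group is taken from the others.

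The genes spanned a wide range of levels. Divided by exon length, Gapdh, glyceraldehyde-phosphate dehydrogenase, was the highest at 2182 ± 332 CPM per kilobase (SD, n = 25). Ldhb, the heart form of lactate dehydrogenase, followed at 1093 ± 149, then Aldoa, the muscle aldolase, at 788 ± 99.98 and Eno3, the muscle enolase, at 699 ± 165 CPM per kilobase. Neighbours in this order from Aldoa to Eno3 and on to Pgam2, the muscle phosphoglycerate mutase, at 572 ± 136 lay within 1 SD of each other. At the low end stood Slc2a1, the basal glucose transporter GLUT1, at 4.34 ± 0.674, the regulatory enzyme gene Pfkfb3 at 1.91 ± 0.542 and the brain aldolase Aldoc at 0.062 ± 0.0384 CPM per kilobase. Aldoc was at 0 in 1 BPH_vehicle library.

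**Figure D1:**
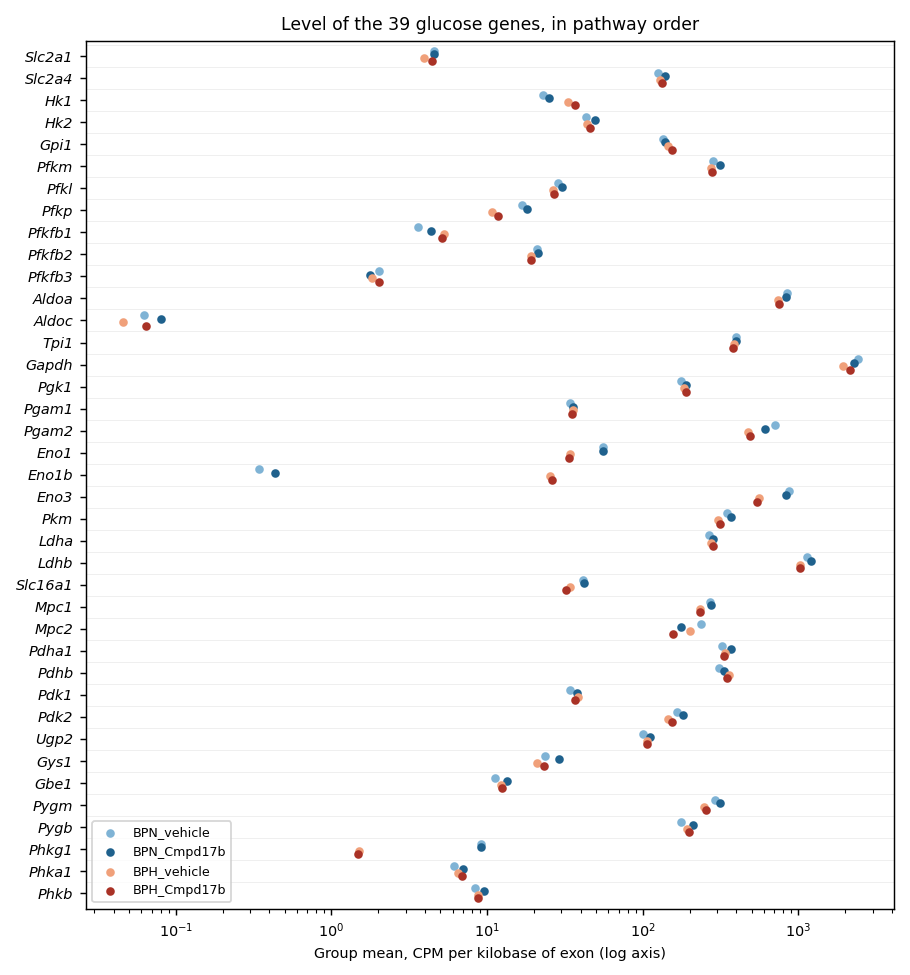
Mean level of each of the 39 genes in the 4 groups, in CPM per kilobase of exon on a log axis, with 1 point per group and genes ordered by pathway step. Most genes show 4 points close together, while Eno1b and Phkg1 show the BPN/3J and BPH/2J points far apart.

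Where a step has several isoforms, the muscle or heart form held most of the family's signal per kilobase. Slc2a4, the insulin-responsive transporter GLUT4, made up 96.8 ± 0.488% of the Slc2a1 and Slc2a4 signal (SD, n = 25). Pfkm, the muscle phosphofructokinase, held 87.1 ± 1.32% beside 8.55 ± 0.558% for the liver form Pfkl and 4.33 ± 1.09% for the platelet form Pfkp. Pgam2 held 93.9 ± 1.60% of the mutase pair, and Eno3 held 94.1 ± 0.664% of the Eno1 and Eno3 pair. Eno1b, a copy of Eno1 described further on, was not part of this share. Its mean was 0.34 CPM per kilobase in BPN_vehicle and 25.3 in BPH_vehicle, where Eno1 stood at 34.1 and Eno3 at 561. Ldhb made up 79.7 ± 1.89% beside Ldha, the form that prevails in skeletal muscle. The phosphorylases and hexokinases were more even. Pygm, the muscle glycogen phosphorylase, held 58.9 ± 4.44% beside the brain form Pygb. The hexokinase gene Hk1 held 39.1 ± 6.14% beside Hk2, the insulin-responsive form. The Hk1 share was 34.5 ± 5.77% in BPN_vehicle and 33.6 ± 1.54% in BPN_Cmpd17b, against 42.8 ± 3.96% in BPH_vehicle and 44.7 ± 1.84% in BPH_Cmpd17b. Among the pyruvate dehydrogenase kinases Pdk1 and Pdk2, Pdk2 held 81.2 ± 3.13%. The other kinases, Pdk3 and Pdk4, were not part of this share.

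The first comparison asked how hypertensive and normotensive ventricles differ under vehicle. Of the 39 genes 9 were called, or 23.1%, beside 18.9% of all genes tested. Of these, 3 were higher in BPH/2J (Eno1b, Hk1 and Pfkfb1), beside 9.16% of all genes, and 6 were lower (Phkg1, Eno1, Eno3, Pgam2, Pfkp and Gapdh), beside 9.73%. Summing 2 near-identical pairs described further on, Eno1 with Eno1b and Gapdh with Gm12070, left 7 calls, beside 18.9% of all genes. Without BPN_vehicle replicate 7, described further on, 18 of the 39 genes were called, or 46.2%, beside 24.2% of all genes. The median log2 difference of the 39 with it was -0.10, against -0.00076 over all genes tested. The libraries of the strains did not overlap for 6 of the 39 genes, 1 higher and 5 lower, beside 6.36% of all genes. Leaving out the scarce Aldoc, the uncalled genes ran from -0.28 (Slc16a1) to 0.21 (Pdhb), with 95% intervals from -0.57 to 0.48. With the kidney-like library included, 4 genes were called, 2 higher and 2 lower, beside 9.59% of all genes (4.78% higher and 4.81% lower).

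Under Cmpd17b the same comparison, made on other mice, called 6 of the 39 genes, or 15.4%, beside 14.1% of all genes. Eno1b and Hk1 were higher in BPH/2J (7.48% of all genes) and Phkg1, Eno1, Eno3 and Pfkp lower (6.65% of all genes). All 6 were also called under vehicle, in the same direction. The median log2 difference was -0.11, against 0.01 over all genes, and 31 of 39 values were below 0, against 22 of 39 under vehicle. The libraries of the strains did not overlap for 10 genes, 2 higher and 8 lower, beside 12.6% of all genes. The uncalled genes other than Aldoc ran from -0.40 (Slc16a1) to 0.30 (Pfkfb1), with 95% intervals from -0.73 to 0.67. Without BPH_Cmpd17b replicate 6 the count stayed at 6, beside 13% of all genes. With the kidney-like library included it was 4, 2 higher and 2 lower, beside 7.68% of all genes (4.15% higher and 3.54% lower). With the near-identical pairs summed it was also 4, beside 14.1% of all genes. Without BPN_vehicle replicate 7, a library outside this comparison, it was 12, beside 20.1% of all genes. The sign agreed between the comparisons for 28 of the 39 genes, or 71.8%, and for 70.5% of all genes tested.

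**Figure D2:**
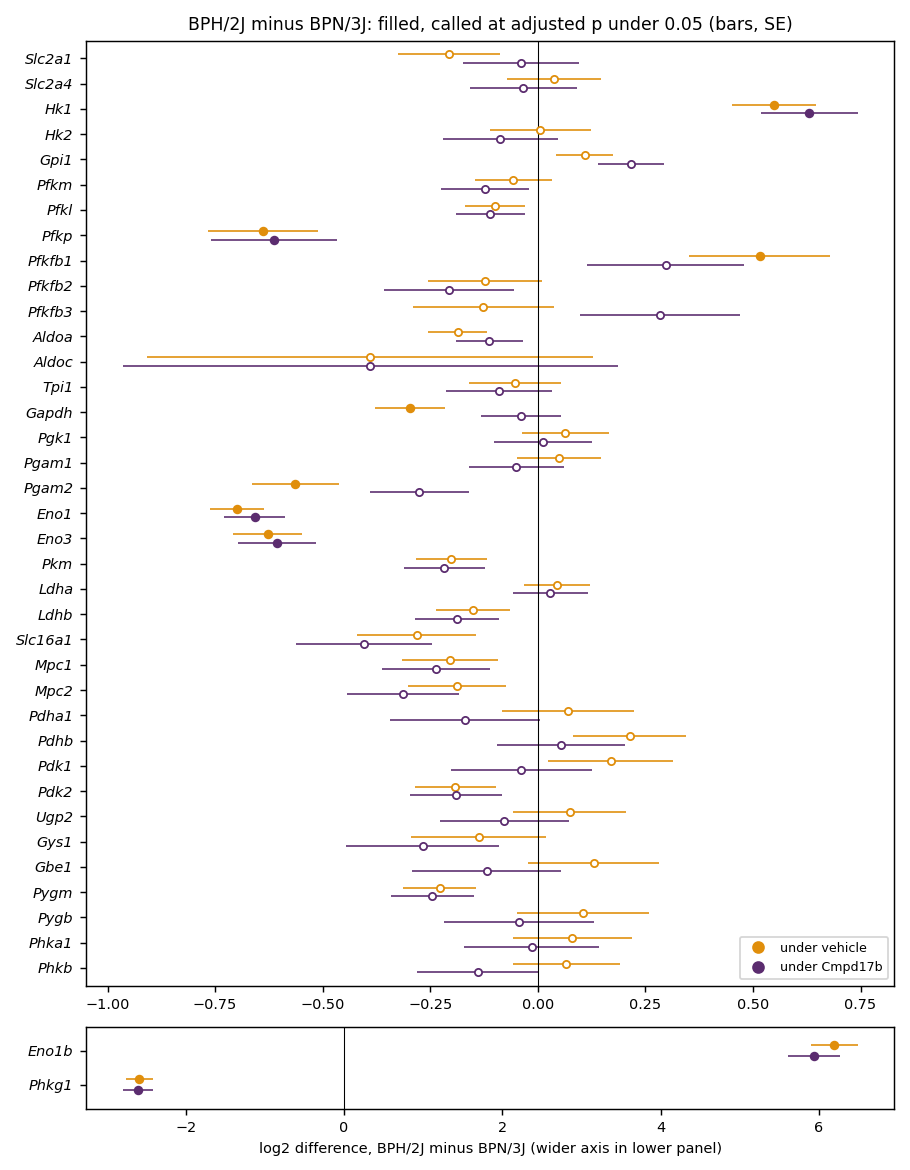
Log2 difference of BPH/2J minus BPN/3J for each gene under vehicle and under Cmpd17b, with bars of 1 standard error and filled points where the gene was called; Eno1b and Phkg1 have a wider axis below. The filled points under Cmpd17b are 6 of the 9 filled under vehicle, and Gapdh, Pgam2 and Pfkfb1 are filled under vehicle alone.

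Neither glucose transporter was called between the strains. Slc2a4 ran from 207 over a median of 370.4 to 418 CPM in BPN_vehicle and from 320 over 365 to 406 CPM in BPH_vehicle. The ranges overlap, and the log2 difference was 0.04 ± 0.11 (SE) under vehicle and -0.03 ± 0.12 under Cmpd17b, with adjusted p of 0.863 and 0.912 in edgeR. Slc2a1 ran from 8.25 over 15.6 to 17.9 CPM in BPN_vehicle and from 11.7 over 12.8 to 14.7 CPM in BPH_vehicle. Its log2 difference under vehicle was -0.21 ± 0.12 (edgeR adjusted p = 0.246), with BPN_vehicle replicate 7 the lowest library of all.

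Of the 3 genes of glucose trapping, Hk1 was higher in BPH/2J, and Hk2 and the isomerase gene Gpi1 were not called. Hk1 ran from 73.9 over 123 to 140.1 CPM in BPN_vehicle and from 119 over 158 to 183 CPM in BPH_vehicle. The 5 BPN_Cmpd17b libraries stood at 122, 138, 110.5, 113 and 121 CPM, and the BPH_Cmpd17b libraries ran from 152 over 178 to 197 CPM. All 6 BPH_Cmpd17b libraries lay above every BPN_Cmpd17b library, while under vehicle 6 of 7 did, and the batch 2 libraries were low in both strains. Hk1 differed by 0.55 ± 0.10 on the log2 scale under vehicle, or 1.46-fold (edgeR adjusted p = 1e-04), and 0.63 ± 0.11 under Cmpd17b, or 1.55-fold (adjusted p = 0.000143). Within batch 1 the vehicle difference was 0.47 (adjusted p = 0.00451) and within batch 2 it was 0.75 (adjusted p = 0.00896). Hk2 differed by 0.01 ± 0.12 under vehicle and -0.09 ± 0.13 under Cmpd17b.

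Among the phosphofructokinases the platelet form Pfkp was lower in BPH/2J, while Pfkm and Pfkl were not called. Pfkp ran from 53.7 over 78.0 to 93.4 CPM in BPN_vehicle and from 39.6 over 48.0 to 52.1 CPM in BPH_vehicle, with no overlap. The BPN_Cmpd17b libraries stood at 80.8, 95.6, 72.9, 75.1 and 63.9 CPM, and the BPH_Cmpd17b libraries ran from 40.3 over 50.5 to 68.6 CPM. Replicate 6 of BPH_Cmpd17b, at the top of that range, lay above 1 BPN_Cmpd17b library. Pfkp differed by -0.64 ± 0.13 under vehicle (edgeR adjusted p = 0.000441) and -0.61 ± 0.15 under Cmpd17b (adjusted p = 0.00366). Within batch 1 the vehicle value was -0.74 (adjusted p = 0.000162), and within batch 2 it was -0.36 and not called (adjusted p = 0.175). Exons of Pfkp overlap those of Pitrm1 on the opposite strand over 748 bases, and Pitrm1 differed by -0.10 (adjusted p = 0.566). Pfkm and Pfkl differed by -0.06 ± 0.09 and -0.10 ± 0.07 under vehicle.

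The Pfkfb genes encode bifunctional enzymes that make and remove fructose 2,6-bisphosphate, the activator of phosphofructokinase. Pfkfb1 was higher in BPH/2J under vehicle, and Pfkfb2, the heart form, and Pfkfb3 were not called. Pfkfb1 ran from 5.29 over 6.69 to 11.0 CPM in BPN_vehicle and from 5.71 over 11.9 to 13.1 CPM in BPH_vehicle. The 5 BPH_vehicle libraries of batch 1 lay above every BPN_vehicle library, and the 2 of batch 2 lay inside that range. Pfkfb1 differed by 0.52 ± 0.16 (edgeR adjusted p = 0.0258), 0.62 within batch 1 (adjusted p = 0.00954) and 0.26 within batch 2 (adjusted p = 0.548). Under Cmpd17b the BPN/3J libraries stood at 9.06, 6.17, 10.2, 10.9 and 8.23 CPM and those of BPH/2J ran from 2.88 over 11.1 to 14.9 CPM, with a difference of 0.30 ± 0.18 (adjusted p = 0.34). The call under vehicle was lost in 7 of 27 alternatives: without a batch term, in batch 2 alone, with the kidney-like library included, and without BPN_vehicle replicate 3, 4 or 6 or BPH_vehicle replicate 7, where adjusted p reached at most 0.548.

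Lower glycolysis holds 11 of the genes, of which 1 was higher and 4 were lower in BPH/2J under vehicle, beside 9.16% higher and 9.73% lower of all genes tested. Gapdh ran from 2828 over 3576 to 4576 CPM in BPN_vehicle and from 2399 over 2721 to 3407 CPM in BPH_vehicle, and 5 of 7 BPN_vehicle libraries lay above every BPH_vehicle library. Its log2 difference was -0.30 ± 0.08 under vehicle (edgeR adjusted p = 0.00884). Within batch 1 it was -0.35 (adjusted p = 0.0144), within batch 2 it was -0.17 and not called (adjusted p = 0.62), and with the kidney-like library included it was -0.30 and not called (adjusted p = 0.205). In BPN_Cmpd17b it stood at 3323, 3795, 3445, 3112 and 3299 CPM, inside the 2517 to 3812 CPM of BPH_Cmpd17b, with a difference of -0.04 ± 0.09 (adjusted p = 0.857). The difference of these strain differences, tested as an interaction, was 0.26 ± 0.12 and not called (adjusted p = 0.917). Summed with Gm12070, a processed pseudogene in the table that is 99.9% identical over 1002 bases, Gapdh differed by -0.28 ± 0.08 under vehicle (adjusted p = 0.0127).

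Pgam2 was lower in BPH/2J under vehicle. It ran from 485 over 526 to 807 CPM in BPN_vehicle and from 339.7 over 404 to 456 CPM in BPH_vehicle, with no overlap, and BPN_vehicle replicate 7 was the highest library. The log2 difference was -0.56 ± 0.10 (edgeR adjusted p = 0.000125), -0.59 within batch 1 (adjusted p = 0.0012) and -0.50 within batch 2 (adjusted p = 0.061). Under Cmpd17b the BPN/3J libraries stood at 487, 542, 523, 538 and 490.0 CPM and those of BPH/2J ran from 277 over 420.4 to 532 CPM. There the groups overlap, and the difference of -0.28 ± 0.12 was not called (adjusted p = 0.122). In the fit without BPN_vehicle replicate 7, a library outside this comparison, it was -0.28 and called (edgeR adjusted p = 0.0341).

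Eno3 was lower in BPH/2J under both treatments, and it carries most of the enolase signal of the ventricle. It ran from 1259 over 1333 to 1674 CPM in BPN_vehicle and from 776 over 872 to 1017 CPM in BPH_vehicle. The BPN_Cmpd17b libraries stood at 1315, 1357, 1294, 1289.6 and 1293 CPM, and the BPH_Cmpd17b libraries ran from 719 over 874 to 930.4 CPM. The lowest BPN/3J value exceeded the highest BPH/2J value. The log2 difference was -0.63 ± 0.08 under vehicle (edgeR adjusted p = 7.05e-07), so the level was 1.55-fold higher in BPN/3J, and -0.61 ± 0.09 under Cmpd17b (adjusted p = 1.18e-05). Within batch 2 the vehicle value was -0.54 (adjusted p = 0.0923), beside -0.66 within batch 1 (adjusted p = 4.5e-06).

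The largest difference between the strains among the 39 genes was that of Eno1b, a near-identical copy of Eno1, the widely expressed enolase. Eno1b ran from 0.247 over 0.676 to 0.882 CPM in BPN_vehicle and from 33.1 over 42.8 to 62.0 CPM in BPH_vehicle. In BPN_Cmpd17b it stood at 2.43, 0.451, 0.517, 0.256 and 0.433 CPM, and in BPH_Cmpd17b it ran from 40.5 over 50.1 to 53.7 CPM. It was low in all 12 BPN/3J libraries and high in all 13 BPH/2J libraries, with log2 differences of 6.19 ± 0.29 (73.2-fold, edgeR adjusted p = 2.27e-14) and 5.94 ± 0.33 (61.3-fold, adjusted p = 8.14e-13). Eno1 itself was lower in BPH/2J. It ran from 104 over 144 to 176 CPM in BPN_vehicle and from 65.6 over 89.1 to 101 CPM in BPH_vehicle, with a log2 difference of -0.70 ± 0.06 (adjusted p = 1.08e-09). Under Cmpd17b it stood at 144, 154, 139, 143 and 131 CPM in BPN/3J and ran from 68.7 over 88.5 to 92.9 CPM in BPH/2J (-0.66 ± 0.07, adjusted p = 5.11e-08).

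The Eno1 and Eno1b transcripts of the reference genome are 99.48% identical over 1736 bases, 85.64% of the Eno1 transcript, and the deposited counts of both were not whole numbers in any library, so reads that match both cannot be assigned to 1 of them with certainty. Eno1b made up 30.5 to 39.3% of the summed Eno1 and Eno1b level in BPH_vehicle and 35.4 to 37.6% in BPH_Cmpd17b, against 0.172 to 0.653% in BPN_vehicle and 0.179 to 1.66% in BPN_Cmpd17b. Summed, the pair ran from 108 to 158 CPM in BPH_vehicle and from 105 to 177 CPM in BPN_vehicle. The log2 difference of the sum was -0.08 ± 0.07 under vehicle (edgeR adjusted p = 0.463) and -0.01 ± 0.07 under Cmpd17b (adjusted p = 0.951). The opposite differences of the separate genes were therefore not seen in the sum, and the part of shared reads in them was not tested. In the kidney-like library, labelled BPH/2J, Eno1 stood at 403 and Eno1b at 209 CPM of the total count, a scale without the TMM factor used elsewhere.

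**Figure D3:**
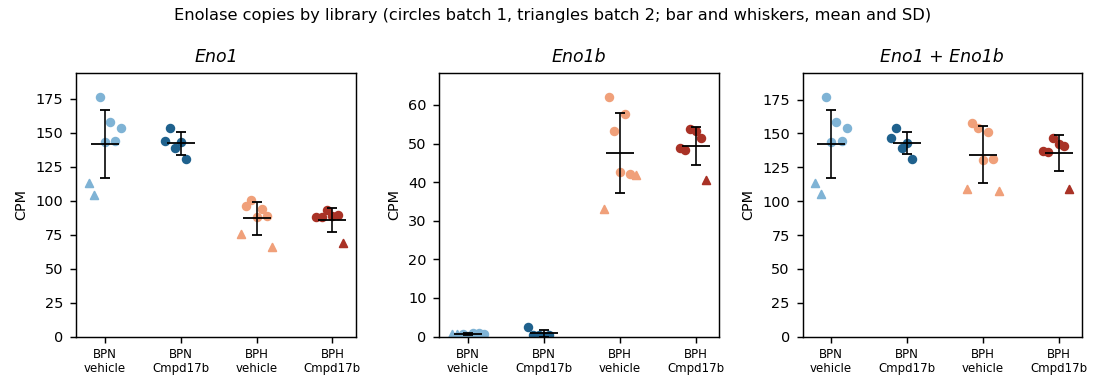
Eno1, Eno1b and their sum in CPM by library and group, with circles for batch 1, triangles for batch 2, and the mean and SD as bar and whiskers. Eno1b lies between 33.1 and 62.0 CPM in every BPH/2J library and at or under 2.43 CPM in every BPN/3J library, while the sums of the strains overlap.

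The other 6 genes of lower glycolysis were not called under vehicle. Aldoa differed by -0.19 ± 0.07 (edgeR adjusted p = 0.0562) and Pkm, pyruvate kinase of muscle, by -0.20 ± 0.08 (adjusted p = 0.0926). Tpi1, triosephosphate isomerase, Pgk1, phosphoglycerate kinase, and Pgam1, the widely expressed mutase, differed by -0.05, 0.06 and 0.05. Aldoc differed by -0.39 ± 0.52 at a level too low to be precise.

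The 3 lactate genes and the 6 genes of pyruvate entry held no call between the strains. Ldha and Ldhb differed by 0.05 ± 0.08 and -0.15 ± 0.09 under vehicle. Slc16a1, the lactate and pyruvate transporter MCT1, differed by -0.28 ± 0.14 under vehicle (edgeR adjusted p = 0.169) and -0.40 ± 0.16 under Cmpd17b (adjusted p = 0.093). It stood at 176 to 199.5 CPM in BPN_Cmpd17b and at 123 to 156 CPM in BPH_Cmpd17b, without overlap. Of the mitochondrial pyruvate carrier subunits, Mpc1 differed by -0.20 ± 0.11 and Mpc2 by -0.19 ± 0.11. Mpc2 ran from 159 over 184 to 424.5 CPM in BPN_vehicle and from 145 over 188 to 353 CPM in BPH_vehicle, and the 2 batch 2 libraries were the highest in each of these groups. The pyruvate dehydrogenase subunits Pdha1 and Pdhb differed by 0.07 ± 0.15 and 0.21 ± 0.13, and the kinases Pdk1 and Pdk2 by 0.17 ± 0.14 and -0.19 ± 0.09.

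Of the glycogen genes only Phkg1, which encodes the muscle catalytic subunit of phosphorylase kinase, was called. It ran from 14.2 over 22.0 to 29.6 CPM in BPN_vehicle and from 2.49 over 3.37 to 4.44 CPM in BPH_vehicle. In BPN_Cmpd17b it stood at 19.0, 21.6, 26.8, 19.6 and 21.6 CPM, and in BPH_Cmpd17b it ran from 1.51 over 3.71 to 4.66 CPM. The ranges of the strains were far apart, with no overlap under either treatment. Phkg1 differed by -2.59 ± 0.17 under vehicle, 6.01-fold higher in BPN/3J (edgeR adjusted p = 4.23e-12), and -2.61 ± 0.19 under Cmpd17b (adjusted p = 4.48e-11). Within batch 1 the vehicle value was -2.67 (adjusted p = 4.29e-11) and within batch 2 it was -2.37 (adjusted p = 5.02e-05). Exons of Phkg1 overlap those of Sumf2 on the opposite strand over 630 bases, and Sumf2 differed by -0.26 (adjusted p = 0.0551). The alpha and beta subunit genes of the same kinase, Phka1 and Phkb, differed by 0.08 ± 0.14 and 0.07 ± 0.12. Pygm differed by -0.23 ± 0.08 (adjusted p = 0.0605) and Pygb by 0.10 ± 0.15. On the side of synthesis, Ugp2, which makes UDP-glucose, the glycogen synthase Gys1 and the branching enzyme Gbe1 differed by 0.07 ± 0.13, -0.14 ± 0.16 and 0.13 ± 0.15.

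**Figure D4:**
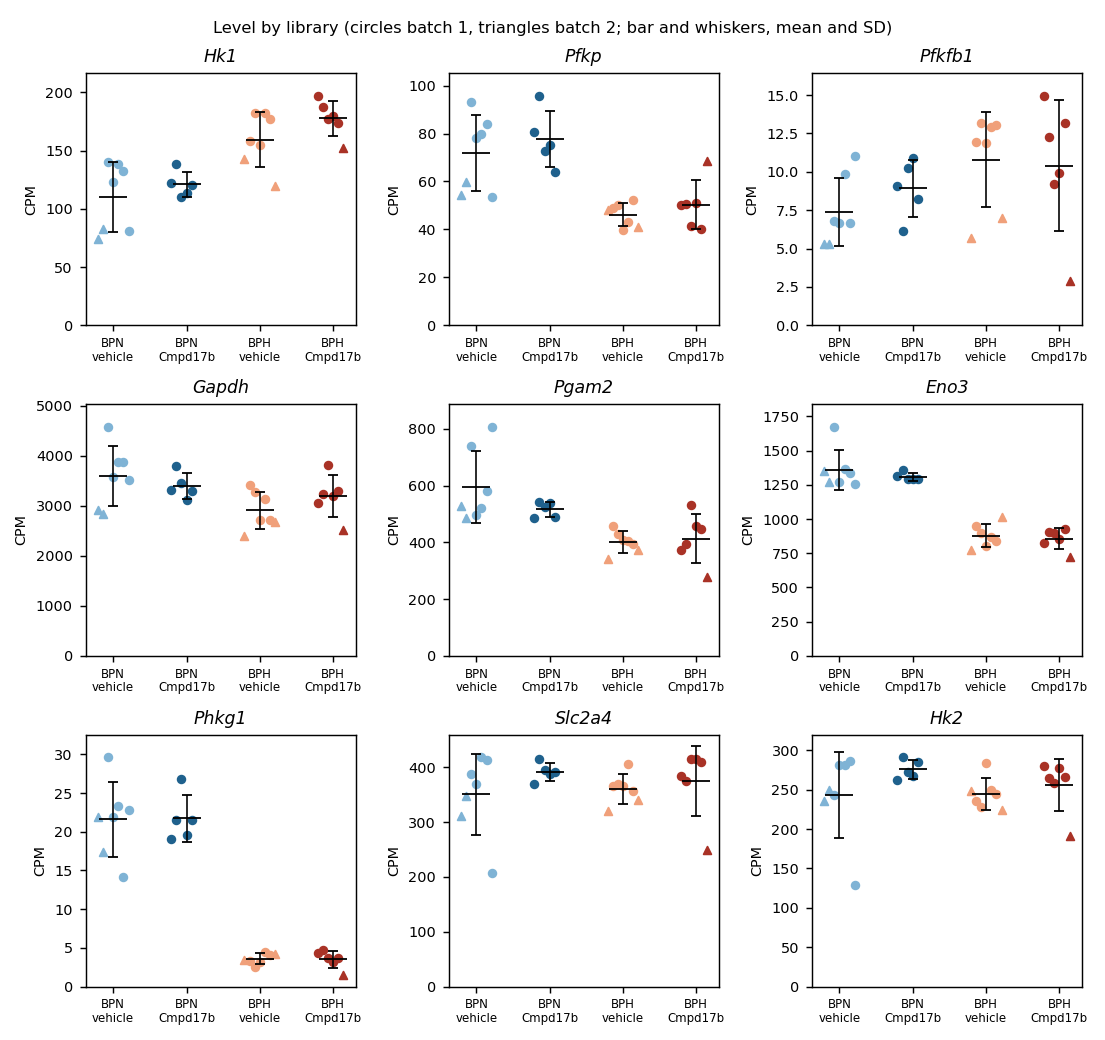
CPM of 7 called genes and of the uncalled Slc2a4 and Hk2 by library and group, with circles for batch 1, triangles for batch 2, and the mean and SD as bar and whiskers; each axis starts at 0. The strains are separated for Eno3 and Phkg1 under both treatments, and BPN_vehicle replicate 7 is the lowest of its group for Slc2a4 and Hk2.

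The promoters of 3 genes that were lower in BPH/2J and belong to muscle isoforms are shown because these genes differ by strain and no near-identical paralog of them was found in the table. They are 300-base windows around the start of the gene from RefSeq (GRCm38.p6, C57BL/6J reference), not sequences of BPN/3J or BPH/2J, and lie at chr5:129879039-129879338 on the minus strand for Phkg1, chr11:70656926-70657225 on the plus strand for Eno3 and chr11:5803747-5804046 on the minus strand for Pgam2. Capitals mark the E-box CANNTG, the core bound by muscle regulatory and other helix-loop-helix factors.
Phkg1: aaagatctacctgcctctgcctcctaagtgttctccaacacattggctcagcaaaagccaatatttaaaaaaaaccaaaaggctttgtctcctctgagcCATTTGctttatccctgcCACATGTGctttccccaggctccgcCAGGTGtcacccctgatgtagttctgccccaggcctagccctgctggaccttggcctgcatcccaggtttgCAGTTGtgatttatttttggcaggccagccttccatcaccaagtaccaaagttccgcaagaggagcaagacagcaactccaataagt
Eno3: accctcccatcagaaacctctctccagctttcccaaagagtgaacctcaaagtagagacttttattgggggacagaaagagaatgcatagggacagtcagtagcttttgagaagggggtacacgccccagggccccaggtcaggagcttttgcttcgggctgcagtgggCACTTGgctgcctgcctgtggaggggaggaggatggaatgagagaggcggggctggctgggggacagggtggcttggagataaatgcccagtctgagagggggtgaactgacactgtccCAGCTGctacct
Pgam2: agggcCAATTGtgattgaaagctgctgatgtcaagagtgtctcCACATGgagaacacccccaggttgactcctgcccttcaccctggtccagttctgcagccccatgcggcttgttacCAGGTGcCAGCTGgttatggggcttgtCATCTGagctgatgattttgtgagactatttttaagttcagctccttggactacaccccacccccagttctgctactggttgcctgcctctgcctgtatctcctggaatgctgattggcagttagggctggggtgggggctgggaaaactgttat
Phkg1 and Pgam2 hold 5 E-boxes each and Eno3 holds 2, counting overlapping ones, and Pgam2 also holds a match to the MEF2 box, a site of a muscle transcription factor family. A promoter entry was found for 37 of the 39 genes. Several of these, among them Pfkfb1 and Aldoa, have more than 1 window, and all 27025 genes together have 32851. A gene was counted where any of its windows held a match, so genes with more windows match more easily. The shares that follow were not matched for the number of windows or for base content. A motif that holds CG, as ACGTG below does, matches more easily in windows rich in CG. At least 1 E-box lies in a window of 29 of the 37, or 78.4%, beside 75% of 27025 genes. A MEF2 box lies in 2 of the 37, or 5.41%, beside 3.7% of genes. ACGTG, the core of the response element of hypoxia-inducible factors, searched on both strands, lies in 19 of the 37, or 51.4%, beside 21.8% of genes; where it falls in CACGTG it is also an E-box. The windows of Phkg1, Eno3 and Pgam2 hold no ACGTG. A match is a run of letters and not a measured binding site.

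The count of calls depended on BPN_vehicle replicate 7. Without that library 18 of the 39 genes were called under vehicle, 3 higher and 15 lower in BPH/2J, or 46.2%, beside 24.2% of all genes in that fit (11.7% higher and 12.5% lower). The 9 genes called with it were all kept. The 9 added genes were all lower in BPH/2J: Slc2a1 (-0.31), Pfkm (-0.14), Aldoa (-0.20), Pkm (-0.26), Slc16a1 (-0.42), Mpc1 (-0.29), Pdk2 (-0.27), Gys1 (-0.28) and Pygm (-0.30), with adjusted p in edgeR between 3.58e-05 and 0.0396. The median log2 difference of the 39 was -0.14 in that fit, against 0.01 over all genes tested, and 32 of 39 values were below 0. The library left out was the lowest of its group for 26 of the 39 genes and the highest for 3. Leaving it out raises the BPN_vehicle level of most of them, so the downward direction of the shift was largely fixed in advance. Under Cmpd17b, a comparison that holds no BPN_vehicle library but shares the estimate of spread, 12 genes were called without BPN_vehicle replicate 7. Of these 3 were higher and 9 lower, beside 20.1% of all genes (9.92% higher and 10.2% lower). The 6 genes called with it were all kept. The 6 added genes were Gpi1 (0.22), higher in BPH/2J, and Pgam2 (-0.28), Pkm (-0.21), Slc16a1 (-0.39), Gys1 (-0.26) and Pygm (-0.24), lower. Their adjusted p in edgeR lay between 0.000294 and 0.037. The log2 differences of this comparison moved little (Slc16a1 from -0.40 to -0.39, Pkm from -0.22 to -0.21). The endothelial sum of that library, given above, moved with these values, and its part in them was not tested.

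Other genes of the same pathways were read from 5 lists of 89 genes, 84 of them tested. Under vehicle 5 were higher and 8 lower in BPH/2J, or 15.5%, and under Cmpd17b 2 were higher and 7 lower, or 10.7%, shares below the 18.9% and 14.1% of all genes. Stbd1, a glycogen-binding protein that tethers glycogen to membranes, was higher in BPH/2J by 3.54 ± 0.19 under vehicle (edgeR adjusted p = 1.27e-14) and by 3.65 ± 0.22 under Cmpd17b (adjusted p = 2.94e-13). Gaa, the lysosomal enzyme that degrades glycogen, was lower by -0.61 and -0.58 on the log2 scale (adjusted p = 1.28e-05 and 0.000179). Sord, the polyol enzyme sorbitol dehydrogenase, differed by -1.29 and -1.34 (adjusted p = 2.23e-09 and 1.38e-08), and Slc2a12, a further glucose transporter, by -0.85 and -0.98 (adjusted p = 0.000117 and 0.000138). Also lower under both treatments were Rpia of the pentose phosphate pathway (-0.36 and -0.70), the phosphatase Pdp1 that activates pyruvate dehydrogenase (-0.40 and -0.54), the lactate dehydrogenase Ldhd (-0.37 and -0.43) and Oga, which removes O-linked N-acetylglucosamine (-0.30 and -0.39). Under vehicle Pdp1 and Oga each lost the call in 7 of 27 alternatives, with -0.34 and -0.23 in batch 1 (adjusted p = 0.133 and 0.185) and -0.54 and -0.46 in batch 2 (adjusted p = 0.0502 and 0.0533). Ldhd lost it under vehicle in 5 of 27, with -0.22 in batch 1 (adjusted p = 0.233) and -0.72 in batch 2 (adjusted p = 0.0107), and under Cmpd17b without BPN_Cmpd17b replicate 1 or 5 or BPH_Cmpd17b replicate 1 or 6. For Rpia the batch 2 libraries gave -0.50 and no call (adjusted p = 0.0878). Called under vehicle alone were Tkt, transketolase (-0.65), Slc16a7, the transporter MCT2 (0.64), and Egln3, an oxygen-sensing hydroxylase (0.54); under Cmpd17b they differed by -0.37, 0.16 and 0.19, and no interaction was called in these lists. In batch 2 alone Tkt was at -0.48 (adjusted p = 0.0765) and Slc16a7 at 0.34 (adjusted p = 0.415), and neither was called. Egln3 lost its call in 12 of 27 alternatives, among them batch 1 alone (adjusted p = 0.127) and batch 2 alone (adjusted p = 0.0649). Slc2a10 was higher under both treatments by 0.54 and 0.87 at an average log2 CPM under 1.

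Pdk4, the pyruvate dehydrogenase kinase that rises with fasting and fatty acid use, was also called under vehicle alone. It ran from 122 over 171 to 238 CPM in BPN_vehicle and from 138 over 456 to 695 CPM in BPH_vehicle, a log2 difference of 1.27 ± 0.33 (edgeR adjusted p = 0.00723) that was 1.59 within batch 1 (adjusted p = 0.000572) and 0.16 within batch 2 (adjusted p = 0.813). Under Cmpd17b it ran from 175 over 339 to 533 CPM in BPN/3J and from 140.2 over 276 to 441 CPM in BPH/2J, a difference of -0.18 ± 0.37 (adjusted p = 0.829). The interaction was -1.45 ± 0.50 and not called (adjusted p = 0.917).

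The next comparisons asked what Cmpd17b changed within a strain. None of the 39 genes was called in BPH/2J or BPN/3J by edgeR, nor any of all genes tested (0% in both). By DESeq2 and by limma voom with quality weights none of the 39 was called either, and DESeq2 called 1 gene of all tested in BPN/3J. At an unadjusted p under 0.05 edgeR gave 0 of the 39 genes in BPH/2J, beside 1.85% of all genes, and 1 of 39 in BPN/3J, beside 9.69%. In BPH/2J the log2 differences ran from -0.21 (Pfkfb1) to 0.40 (Aldoc), and 38 of 39 lay within 0.25 of 0. Leaving out the scarce Aldoc, the 95% intervals reached from -0.56 (Pfkfb1) to 0.46 (Eno1b). In BPN/3J the differences ran from -0.31 (Pfkfb3) to 0.40 (Aldoc), 34 lay within 0.25 of 0, and intervals reached from -0.69 (Pfkfb3) to 1.12 (Eno1b).

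**Figure D5:**
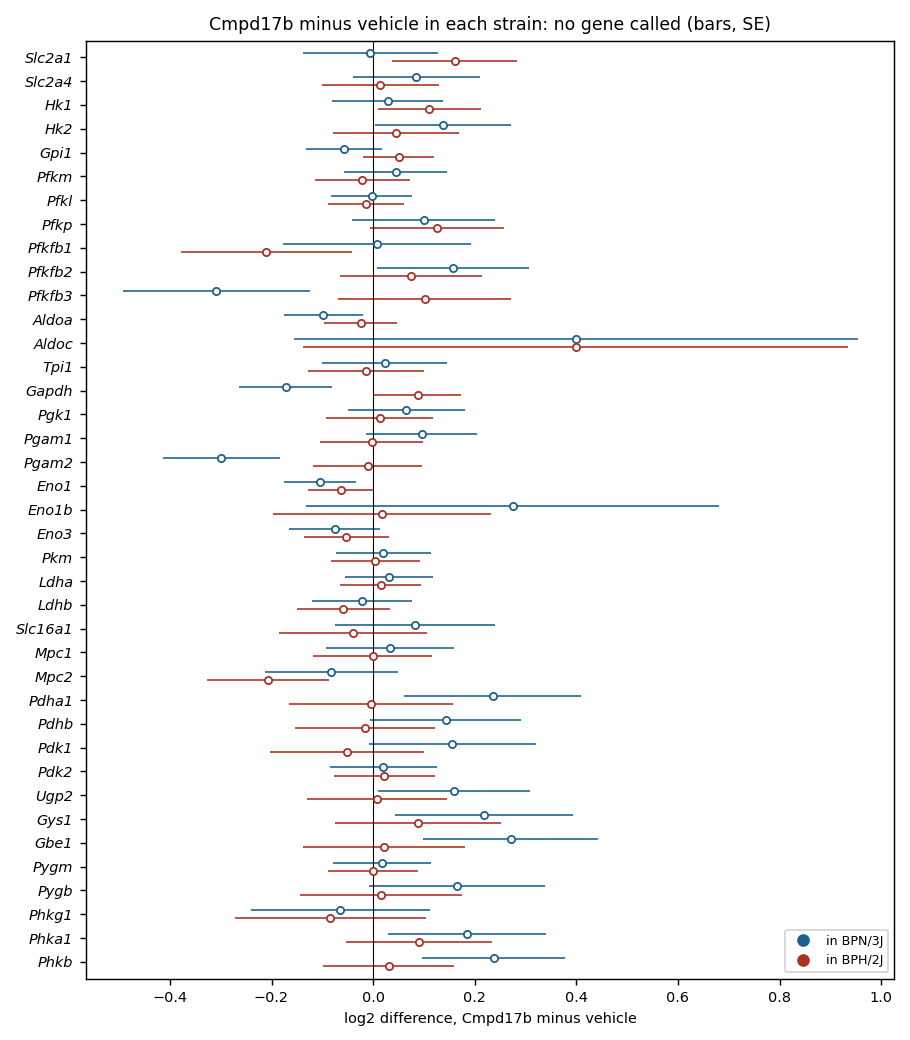
Log2 difference of Cmpd17b minus vehicle for each gene in BPN/3J and in BPH/2J, with bars of 1 standard error and open points because no gene was called. Apart from Aldoc, values in BPH/2J lie between -0.21 and 0.16 and those in BPN/3J between -0.31 and 0.27.

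The smallest p in BPN/3J was that of Pgam2. It stood at 487, 542, 523, 538 and 490.0 CPM on Cmpd17b against 485 over 526 to 807 CPM on vehicle, and all drug values lay within the vehicle range. The log2 difference was -0.30 ± 0.12 (edgeR adjusted p = 0.514). Next came Gapdh at -0.17 ± 0.09, Phkb at 0.24 ± 0.14, Pfkfb3 at -0.31 ± 0.18 and Gbe1 at 0.27 ± 0.17, with adjusted p between 0.539 and 0.571. Phkb stood at 47.6, 42.6, 53.5, 53.4 and 57.2 CPM on Cmpd17b against 20.4 over 48.5 to 53.8 CPM on vehicle. Gbe1 stood at 55.1, 53.5, 59.6, 55.2 and 61.4 CPM on Cmpd17b against 16.99 over 52.9 to 57.7 CPM on vehicle. Pfkfb3 stood at 12.2, 7.18, 8.07, 11.6 and 9.47 CPM on Cmpd17b against 7.59 over 8.61 to 21.5 CPM on vehicle. BPN_vehicle replicate 7 was the lowest vehicle library for Phkb and Gbe1 and the highest for Pfkfb3 and Pgam2. Without it the log2 differences were 0.09 for Phkb, 0.10 for Gbe1, -0.07 for Pfkfb3, -0.22 for Pgam2 and -0.20 for Gapdh.

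In BPH/2J the smallest p was that of Mpc2, which ran from 141 over 149 to 195 CPM on Cmpd17b and from 145 over 188 to 353 CPM on vehicle (-0.21 ± 0.12, edgeR adjusted p = 1). Its highest libraries in both groups were those of batch 2. Slc2a1 ran from 12.1 over 14.2 to 17.8 CPM on Cmpd17b and from 11.7 over 12.8 to 14.7 CPM on vehicle, a difference of 0.16 ± 0.12. Pfkfb1, Hk1 and Gapdh differed by -0.21 ± 0.17, 0.11 ± 0.10 and 0.09 ± 0.09. The drug and vehicle libraries overlapped for each of the 39 genes in both strains, and groups that do not overlap made up 0.0772% of all genes in BPH/2J and 0.341% in BPN/3J.

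The last comparison asked whether the Cmpd17b effect differs between the strains. No gene was called, neither of the 39 nor of all tested (0%), and 1 of the 39, Gapdh, had an unadjusted p under 0.05, beside 3.83% of all genes. Gapdh differed by 0.26 ± 0.12 (edgeR adjusted p = 0.917), Pgam2 by 0.29 ± 0.15, Pfkfb3 by 0.41 ± 0.25, Phkb by -0.21 ± 0.19 and Gbe1 by -0.25 ± 0.23. These 5 had the smallest p among the 39, and each value rests on the same vehicle libraries as the strain comparison. Without BPN_vehicle replicate 7 they were 0.28 for Gapdh, 0.21 for Pgam2, 0.18 for Pfkfb3, -0.07 for Phkb and -0.09 for Gbe1.

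The spread between mice of the same group was like that of other genes. The median biological coefficient of variation of the 39 was 15.0%, beside 15.3% over all genes tested. It was smallest for Eno1 at 8.58% and largest for Aldoc at 48.95% and Eno1b at 36.9%. Among markers of other cells, the 4 tested of 6 hepatocyte markers were all lower in BPH/2J under vehicle. The sum of the 6 was at most 4.33 CPM in the other groups. In BPN_vehicle it stood at 344, 547, 10.1 and 62.9 CPM in replicates 1 to 4. In replicates 5 to 7 of that group it stood at 0.131, 0.598 and 0.692 CPM, so the high values came from some libraries only. The summed level of 7 adipocyte markers was 25.9 to 42.8 CPM in BPN_vehicle and 16.7 to 26.3 CPM in BPH_vehicle, and of the 4 tested Cidea was called lower in BPH/2J under both treatments. The log2 differences of these 4 had a median of 0.06 and a range of -0.61 to 0.18 under vehicle, and a median of -0.84 under Cmpd17b. The 9 skeletal muscle fibre markers summed to at most 1.83 CPM in the other groups and ran from 0.994 over 1.81 to 10.2 CPM in BPH_vehicle. The 5 atrial cardiomyocyte markers summed to 170.5 to 878 CPM in BPN_vehicle and 329 to 1101 CPM in BPH_vehicle. Under Cmpd17b they summed to 78.5 to 204 CPM in BPN/3J and 457 to 2550 CPM in BPH/2J, without overlap. The 2550 CPM was that of BPH_Cmpd17b replicate 6 alone, and the next highest library of that group, replicate 2, was at 731 CPM. Of the 2 atrial markers tested, Myl4 was called higher in BPH/2J under vehicle and Nppa under Cmpd17b. Under vehicle 1 of 7 fibroblast markers (Col3a1), 2 of 7 macrophage markers (Lyz2 and Mrc1) and 1 of 3 Schwann cell markers (Sox10) were called higher in BPH/2J, and under Cmpd17b Mbp and Sox10 of the Schwann cell markers were. Of 7 smooth muscle and pericyte markers 1 was called under vehicle (Kcnj8, lower) and 2 under Cmpd17b (1 higher and 1 lower), and of 8 lymphocyte markers 3 under each treatment (2 higher and 1 lower). Of 10 cardiomyocyte markers 1 was called under vehicle (Tnnt2, lower in BPH/2J) and 0 under Cmpd17b. Their median log2 difference was -0.04 under each treatment, with a range of -0.26 to 0.19 under vehicle. None of the endothelial, erythroid, kidney tubule or skeletal muscle markers was called between the strains by edgeR. The part of these cell types in the strain differences was not tested.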

How the data were processed

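Left ventricle RNA of 26 mice was measured by polyadenylated RNA-seq. The values deposited by the authors are expected counts, estimated counts of reads per gene with no scaling, of which 93.3% are exactly whole and 97.8% whole within 0.01; they were rounded to whole numbers here. Per the submitters' processing notes, the authors used Trim Galore 0.6.7, STAR 2.7.9a and GRCm39; the counting program and its use of strand are not stated in what was used here. Groups and batch came from the labels, each library is a separate mouse by its title, and no 2 libraries of a group (73 pairs) were identical.

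Genes passing filterByExpr in 25 libraries were fitted with edgeR 4.0.16 (R 4.3.3; TMM, robust quasi-likelihood, 1 coefficient per group and a batch term) and adjusted by Benjamini-Hochberg over all genes tested. The scripts were tested on simulated data. DESeq2 1.42.0 and limma 3.58.1 voom, other filters and scalings, single batches and leaving out libraries were alternatives. Levels per kilobase use GENCODE exons of GRCm38, a build other than the counts'. Full values were given for genes called in any comparison and, where fewer than 5 were called, for those with the smallest p up to 5. Called genes of the other pathway lists were named above an average log2 CPM of 1. The member genes and lists were chosen with earlier results of these data known.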

Additional observations from a re-analysis of the deposited data

Results flagged for a closer look

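Of 56 sets of values (a named gene in 1 group of up to 10 libraries), 7 had a highest or lowest library far from the rest by Dixon's criterion, which chance meets in about 1 of 20. BPN_vehicle replicate 7 gave 3 of them: Pfkfb3 was high at 21.494 CPM (next 13.024), Gbe1 low at 16.994 CPM (next 47.926) and Phkb low at 20.424 CPM (next 41.689). Eno3 was high in BPN_vehicle replicate 3 at 1674.1 CPM (next 1363.5). Gbe1 was high in BPH_vehicle replicate 7 at 62.276 CPM (next 53.83), and Eno1 low in BPH_Cmpd17b replicate 6 at 68.654 CPM (next 88.018). Eno1b was high in BPN_Cmpd17b replicate 1 at 2.4274 CPM (next 0.51741), which is still far below every BPH/2J library.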

How the results depend on the processing

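The count of the 39 genes called between the strains under vehicle (9) became 4 with the kidney-like library (9.59% of all genes called) and 4 in batch 2 alone (7.1%), 18 with limma voom and sample quality weights, which also down-weight BPN_vehicle replicate 7 to 0.0799 (26.4%), and 19 without 3 libraries (BPH_Cmpd17b replicates 6 and 7 and BPN_vehicle replicate 7; 25.8%), beside 18.9% in the fit reported; leaving out 1 library gave 8 to 18, the 18 being without BPN_vehicle replicate 7. Under Cmpd17b (6, beside 14.1% of all genes in the fit reported) it became 11 without those 3 libraries (19.1%) and 11 with limma voom and quality weights (21.8%). It was 13 when only the compared groups were fitted (19.9%). With the spread taken without BPN_vehicle replicate 7, an alternative chosen after seeing the data, it was 12 (20.1%). Leaving out 1 library of the 2 compared groups, the way it was done under vehicle, gave 6 to 7, beside 11.7 to 13.3% of all genes. The 8 to 18 under vehicle stood beside 16.8 to 24.2% of all genes, the 24.2% being without BPN_vehicle replicate 7. DESeq2 called 12 (21.1%) under vehicle and 8 (16%) under Cmpd17b. With Eno1 and Eno1b summed, and Gapdh and Gm12070 summed, the counts were 7 (18.9%) and 4 (14.1%). Counts for the drug and the interaction were 0 throughout, also without each library of the groups compared. Over 50 single-gene results and 1331 alternatives, 1264 kept direction and call, 63 lost the call and 4 reversed. The drug and interaction results among the 50 were not called in the fit reported, so they had no call to lose. Of the reversed, Ldhd under Cmpd17b was 0.6958 with the kidney-like library. For the drug in BPH/2J, Hk1 was -0.006319 and Gapdh -0.02785 with it, and Gapdh was -0.02292 in batch 2 alone. That batch has 1 BPH_Cmpd17b library, replicate 6, assumed to vary like the other groups, so its values for the drug describe that library; the fit called 122 of all genes. Eno1 lost its call with the kidney-like library and when summed with Eno1b, and Eno3 with the kidney-like library; the cause was not tested. Without division by length the shares were 83.81% for Pfkm, 10.23% for Pfkl, 5.957% for Pfkp, 88.04% for Pgam2, 90.68% for Eno3, 73.02% for Ldhb, 51.42% for Pygm, 96.26% for Slc2a4 and 65.36% for Pdk2. No paired analysis was possible because the labels give no replicate numbers shared between groups. Intervals at low counts limit Aldoc and Eno1b most.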
